A study of Mus musculus with 5 samples.

Results

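The comparison was between 2 of the 5 arrays of a series on mouse CD4 T cells, those of the cultures named Th1reg and Th1, with 1 array each. Both began as naive CD4 T cells from the spleen of C57BL/6 mice. The Th1 culture received antibodies to CD3 and CD28, which stimulate the T cell receptor and its main costimulator, together with IL-2, IL-12 and an antibody that blocks IL-4, and was harvested after 4 days. The Th1reg culture began as Th1 cells of that kind, was kept for 4 days in IL-2 with IFN-gamma and IL-4 blocked and no CD3 or CD28 antibody, and was then stimulated again through CD3 and CD28 for 4 days with IL-2, TGF-beta and the same blocking antibodies, which makes 12 days in all. Both therefore ended on a 4-day stimulated step. The other arrays, used here to place the levels, came from the rested cells (8 days, after the step without stimulation), from Th1 cells moved straight into the TGF-beta medium (Th1+TGFb, 8 days), and from naive cells put in that medium for 4 days (iTreg). Each array holds 59305 spots that are not controls, of which all but outlier spots entered. They are 55681 probes and, through their accession, 21366 genes. The labels do not say whether the cultures came from the same or separate mice, or whether the Th1 cells that became Th1reg were those on the Th1 array.

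Th1 cells are the helper T cells that arm macrophages and cytotoxic cells, mainly through IFN-gamma. IL-12 drives them through STAT4 and the transcription factor T-bet. Regulatory T cells (Treg) restrain other T cells and depend on the transcription factor Foxp3. In culture, TGF-beta with IL-2 induces Foxp3 in stimulated naive CD4 cells, and such cells are called iTreg. The difference between Th1reg and Th1 is the net change over the rest and the second stimulation. The longer culture, the rest, the TGF-beta, the missing IL-12 and the antibody to IFN-gamma all differ between the 2 cultures, and their parts cannot be told apart.

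With 1 array for each culture there was no replicate, so neither a test nor a spread between cultures could be had, and the number of arrays limits the precision. Levels are given as scaled log2 signal, the log2 of a probe's processed signal minus that of the 75th percentile of its own array, so 0 is the 75th percentile. Between 45.7% and 48.7% of the spots of an array passed Agilent's mark for well above background, and that percentile of the signal lay between 128.4 (rested) and 259.4 (Th1reg). All arrays lay on 1 slide with 1 scan time. Repeat spots on the same array put the spot-to-spot SD of a difference between Th1reg and Th1 at 0.08 log2 units. It was 0.26 where the signal was under 100. Labelling, hybridisation and scaling between arrays are not in these values. A gene is called higher or lower at a 2-fold difference. Where a gene was not well above background on the dimmer array, the difference was taken against the larger of 2 values, its signal there and the lowest signal that passed on that array, and the fold is written as at least that size.

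Most genes differed little between Th1reg and Th1. Of 12866 genes well above background on at least 1 of the arrays, 1892 (14.7%) were 2-fold apart, 834 (6.48%) higher and 1058 (8.22%) lower in Th1reg, and the median difference was 0.04. Scaled by the spike-in RNA instead, which moves the median of all genes to 0.32, 1389 were higher and 728 lower, so the split between the directions depends on the scaling. Of 146 named genes called in this comparison, all kept their direction under each alternative in which they had a value. They were chosen as 2-fold apart, and scaling by spike-ins or detected probes shifts all differences by less than that. Those alternatives could therefore not turn a direction. At 4-fold 250 were higher and 346 lower, and at 10-fold 70 and 118. On the level of probes 3555 of 26908 (13.2%) were 2-fold apart, 1493 (5.55%) higher and 2062 (7.66%) lower, and among the probes without a gene name 1141 of 9996 (11.4%), 403 (4.03%) higher and 738 (7.38%) lower. Beside this, the Th1reg array was 2-fold apart from Th1+TGFb for 3687 of 13213 genes (27.9%), from iTreg for 3810 of 13183 (28.9%) and from rested for 6462 of 13331 (48.5%). These counts share the Th1reg array. Levels on different arrays also depend on the scaling. By spike-ins the median difference of Th1reg from rested moved from 0.36 to 1.76, and that from Th1+TGFb from 0.23 to 0.87. The median difference from iTreg moved from 0.33 to 0.30. Orders and closeness of levels given below, above all those with rested, therefore hold for the scaling used here. The root mean square difference of Th1reg was 0.93 against Th1, 1.14 against iTreg and 1.57 against rested, with Th1+TGFb between Th1 and iTreg.

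**Figure D1:**
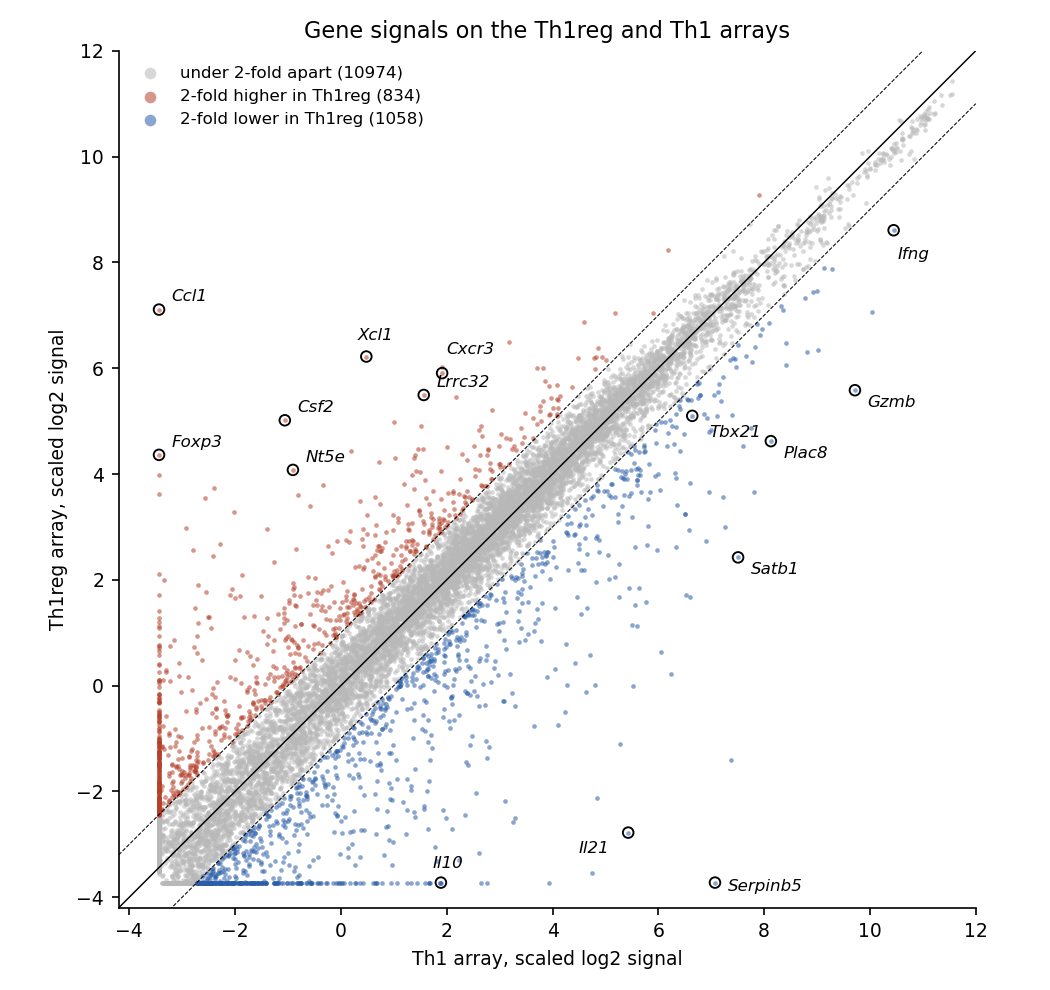
Scaled log2 signal of each measured gene on the Th1 array (horizontal axis) and the Th1reg array (vertical axis). The solid line marks equal signal and the dashed lines a 2-fold difference; genes not well above background on one array lie along its lower limit, circles mark genes named in the text, and 834 genes lie above the band against 1058 below it.

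Of the 4 markers named for this comparison, Foxp3 and Lrrc32 were higher in Th1reg than in Th1, and Tbx21 and Plac8 were lower without disappearing. Other genes of the 2 states, given below, did not all follow. Ifng and Il12rb2 were lower but Cxcr3 was higher, and Il2ra, Ctla4 and Ikzf2 did not reach 2-fold. Foxp3 was not well above background in Th1, Th1+TGFb and rested, and its scaled log2 signal was 4.36 in Th1reg and 5.44 in iTreg, which puts Th1reg above Th1 by at least 223-fold. Lrrc32, which encodes the receptor GARP that holds latent TGF-beta on the Treg surface, stood at 1.57 in Th1, 1.69 in rested and 5.49 in Th1reg, with 0.81 in Th1+TGFb and 6.24 in iTreg. That is 15.2-fold higher in Th1reg than in Th1. Foxp3 and Lrrc32 were thus higher in Th1reg and iTreg than on the other arrays. Both are among the markers named for this comparison, and the share of all genes with that order was not counted. Tbx21, the gene of T-bet, had levels of 6.64 in Th1, 4.39 in rested and 5.10 in Th1reg, with 4.92 in Th1+TGFb and 0.77 in iTreg. It was 2.91-fold lower in Th1reg than in Th1 and 20.1-fold higher than in iTreg. Plac8, taken as a marker of the Th1 side, stood at 8.13 in Th1, 6.97 in rested and 4.62 in Th1reg, with 9.24 in Th1+TGFb and -1.96 in iTreg. Its level in Th1reg was 11.4-fold below Th1 and 95.4-fold above iTreg, and a second probe gave a difference of -3.73 where the main one gave -3.51. In bulk RNA of this kind, fewer cells of a type and less RNA per cell cannot be told apart, so these levels do not say whether each Th1reg cell held both sets of transcripts.

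The Foxp3 promoter is printed because the comparison turns on this gene. The RefSeq table of GRCm38.p6 lists 2 starts for it, and the 250 bases before the first of them, at chrX:7579426-7579675 on the plus strand, hold 1 match to GGAAA, the core that NFAT binds, on the opposite strand (capitals). The same core is found on either strand in 55.6% of all 32851 promoters of that length.
Foxp3: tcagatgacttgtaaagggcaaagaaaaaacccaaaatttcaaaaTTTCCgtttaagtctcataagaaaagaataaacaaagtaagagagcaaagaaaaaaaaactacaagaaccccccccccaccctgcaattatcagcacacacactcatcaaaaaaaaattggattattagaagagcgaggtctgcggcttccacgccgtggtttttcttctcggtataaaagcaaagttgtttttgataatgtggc

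Of 25 measured genes of the Treg signature list, 12 were higher in Th1reg than in Th1 and 2 were lower, with a median difference of 0.83 against 0.04 over all genes. Over all measured genes 6.48% were higher and 8.22% lower, and each list count below is to be read beside these shares. Besides Foxp3 and Lrrc32, the largest differences belonged to enzymes, receptors and secreted factors. Nt5e encodes CD73, the surface enzyme that makes adenosine from AMP. Its levels were -0.91 in Th1, 1.29 in rested and 4.08 in Th1reg, with 3.46 in Th1+TGFb and 4.90 in iTreg, and it was 31.6-fold higher in Th1reg than in Th1. Th1 had the lowest level and the order of the other arrays ran from rested to iTreg. Ccr8, a chemokine receptor found on many Treg cells, stood at -1.40 in Th1 and 2.96 in Th1reg, with -0.04 in Th1+TGFb and 2.30 in iTreg, and did not pass the background limit in rested. It was 20.5-fold higher in Th1reg than in Th1, and Th1reg was the highest of the arrays. Penk, the gene of the opioid precursor proenkephalin, was at 1.91 in Th1 and 6.03 in Th1reg, with 7.60 in Th1+TGFb and -0.09 in iTreg, and not well above background in rested. Its 17.3-fold difference from Th1 was therefore found in Th1+TGFb too, and not in iTreg.

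Smaller differences in the same direction were those of Ebi3, a subunit of IL-27 and IL-35 (7.59-fold), Socs2, a feedback inhibitor downstream of STAT5 (4.65-fold), Il1rl1, the receptor of IL-33 (3.16-fold), and Ikzf4, the transcription factor Eos (2.35-fold). Several genes that Treg cells share with any activated T cell did not reach 2-fold. Il2ra, the alpha chain of the IL-2 receptor, had 8.25 in Th1, 5.24 in rested and 8.16 in Th1reg, with 7.21 in Th1+TGFb and 8.43 in iTreg. Ctla4, an inhibitory receptor, had 4.73 in Th1, 2.93 in rested and 3.90 in Th1reg, with 4.57 in Th1+TGFb and 2.55 in iTreg, a difference between Th1reg and Th1 of -0.83. Tnfrsf18, which encodes GITR, differed by -0.64. Ikzf2, the gene of Helios, was low on all 5 arrays, from -2.40 in Th1 to -0.80 in iTreg, and differed by 0.13. The 2 lower members were Icos, a costimulatory receptor, 4.51-fold, and Tnfrsf9, which encodes 4-1BB, 2.14-fold, although a second Tnfrsf9 probe gave only -0.20. Itgb8 and Gpr15 were near background on both arrays, and Itgae had no probe matched to it.

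**Figure D2:**
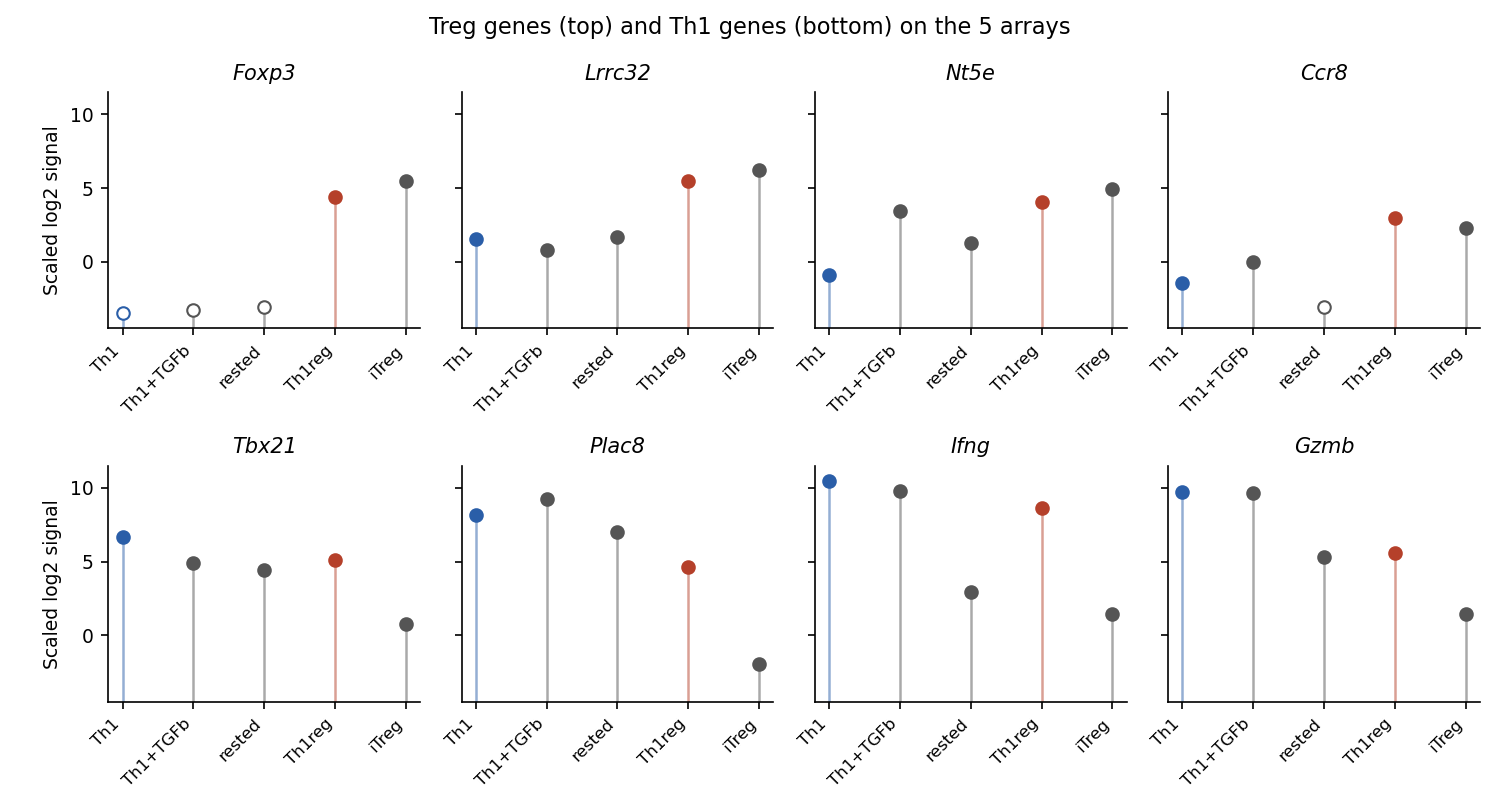
Scaled log2 signal of 4 Treg genes (top) and 4 Th1 genes (bottom) on each array, with Th1 in blue, Th1reg in red and the other cultures in grey. Open circles are not well above background and are drawn at the value used for bounds; Foxp3 and Lrrc32 are high in Th1reg and iTreg alone, and Tbx21, Plac8, Ifng and Gzmb lie lower in Th1reg than in Th1 and higher than in iTreg.

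The Th1 programme list split. Of its 34 measured genes 14 were lower and 6 higher in Th1reg, with a median of -0.69 (13 lower and 9 higher, with a median of -0.40, scaled by spike-ins). Among the transcription factors, Tbx21 was lower as given above, Hlx, a homeobox factor that acts with T-bet, was 20.4-fold lower, from 1.65 in Th1 to -2.70 in Th1reg, and Twist1 was 6.81-fold lower at a level near background. Stat4, which carries the IL-12 signal, was level, with 3.69 in Th1, 5.42 in rested and 3.72 in Th1reg, beside 4.52 in Th1+TGFb and 1.11 in iTreg. Runx3, a partner of T-bet at the Ifng locus, differed by -0.93 and Eomes, the relative of T-bet, by -0.31. The receptors moved both ways. Il12rb2, the inducible chain of the IL-12 receptor, had 2.48 in Th1, 0.32 in rested and -0.95 in Th1reg, with 1.86 in Th1+TGFb and -2.50 in iTreg, a 10.8-fold difference between Th1reg and Th1. Its partner Il12rb1 was 2.25-fold lower. The chains of the IL-18 receptor were not lower: Il18r1 differed by 0.87 and Il18rap by 0.94.

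Th1 cytokines also parted. Ifng had the levels 10.45 in Th1, 2.96 in rested and 8.61 in Th1reg, with 9.76 in Th1+TGFb and 1.46 in iTreg. Th1reg thus lay 3.58-fold below Th1, 50.3-fold above rested and 142.1-fold above iTreg. Tnf was 2.26-fold higher in Th1reg than in Th1, and Lta, which encodes lymphotoxin alpha, was 4.18-fold higher, with 6.18 in Th1, 2.15 in rested and 8.24 in Th1reg, beside 4.04 in Th1+TGFb and 5.41 in iTreg. Fasl, the ligand of the death receptor Fas, was 4.26-fold higher. Of the chemokines, Ccl5 had 6.51 in Th1, 7.69 in rested and 3.25 in Th1reg, with 9.94 in Th1+TGFb and -0.09 in iTreg, and was 9.58-fold lower in Th1reg than in Th1, while Ccl3 and Ccl4 differed by 0.83 and -0.22. Xcl1, the gene of lymphotactin, was 53.4-fold higher, from 0.48 in Th1 to 6.22 in Th1reg, with 5.21 in Th1+TGFb and 4.12 in iTreg and no signal well above background in rested. Th1 was thus the lowest of the 4 stimulated cultures for Xcl1.

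Chemokine receptors of Th1 cells were among the higher members. Cxcr3 was 15.9-fold higher, with 1.91 in Th1, 7.05 in rested and 5.91 in Th1reg, beside 3.40 in Th1+TGFb and 0.96 in iTreg, so its level was highest in rested and Th1reg. Cxcr6 was 2.08-fold higher in Th1reg than in Th1 and much higher in Th1+TGFb and rested (6.53 and 6.17, against 2.20 in Th1reg). Other lower members were Serpinf1, a secreted serpin (42.6-fold), Tgm2, a transglutaminase (28.1-fold), Ltb4r1, a receptor for leukotriene B4 (5.13-fold), and Ly6c1 (7.86-fold), for which a second probe gave a difference of -7.63 and which has a near-identical copy, Ly6c2, with no probe matched here, so its size is uncertain.

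Cytotoxic genes showed the same mixture. Of 21 measured, 8 were lower and 5 higher, with a median of 0.33 (-0.16 with no floor on dim signals). Scaled by spike-ins the balance turned, with 7 higher and 6 lower and a median of 0.62. Gzmb, which encodes granzyme B, had 9.72 in Th1, 5.28 in rested and 5.58 in Th1reg, with 9.66 in Th1+TGFb and 1.45 in iTreg, a 17.5-fold difference between Th1reg and Th1. Its level in Th1reg was close to that in rested on the scaling used here, and this closeness depends on that scaling. Prf1, the gene of perforin, was 2.45-fold lower, and Srgn, the proteoglycan that packs granules, 2.36-fold lower. Gzma went the other way, with 1.25 in Th1, 5.06 in rested and 3.42 in Th1reg, beside 10.91 in Th1+TGFb and nothing well above background in iTreg, which put Th1reg 4.49-fold above Th1. Nkg7, a granule membrane protein, differed by 0.43. Gzme was 10.3-fold lower and Gzmg and Gzmf at least 3.08-fold and 2.11-fold lower, but granzymes of this cluster are alike in sequence and the probes may not tell them apart. Tnfsf10, the gene of TRAIL, was 3.56-fold higher.

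The genes with the largest differences in either direction were picked by rank, leaving out predicted genes, and are not given in rank order. Highest among the bounds was Ccl1, the chemokine that binds Ccr8, at least 1494-fold higher. It was not well above background in Th1 and rested and had 5.06 in Th1+TGFb, 7.11 in Th1reg and 3.59 in iTreg. Tnfsf11, the gene of RANKL, was at least 133.0-fold higher, with -1.81 in rested and 3.62 in Th1reg, beside 2.54 in Th1+TGFb and 0.21 in iTreg. Csf2, which encodes GM-CSF, had -1.06 in Th1, -2.10 in rested and 5.02 in Th1reg, with 2.28 in Th1+TGFb and -0.59 in iTreg, and was 67.4-fold higher in Th1reg than in Th1. For Ccl1, Tnfsf11 and Csf2 the Th1reg array held the highest level of the 5. Cpd, a carboxypeptidase of the Golgi, was 69.3-fold higher by one probe and differed by only 3.22 log2 units by the other. Car2, a carbonic anhydrase, was 59.7-fold higher, Slc16a11, of the monocarboxylate transporter family, 41.3-fold, Cd70, the ligand of CD27, 31.4-fold, Stab1, a scavenger receptor, 29.2-fold, and Cd72, a lectin-like receptor best known on B cells, 24.3-fold. The log2 difference of Car2 was 5.90, and 4.12 after normexp background correction. Stxbp6, a syntaxin-binding protein, was 40.5-fold higher and had almost equal levels in Th1reg and iTreg (1.99 and 1.98). Its level in Th1, -3.35, lay close to the lowest passing signal of that array, -3.44, so the fold is imprecise. Ifi203, an interferon-inducible gene of a family of close relatives, was 70.3-fold higher than in Th1 and lower than in rested (3.74 against 5.61), and its other probes gave log2 differences of 2.44 to 4.78. Apol9a was 39.3-fold and Apol9b at least 170.0-fold higher, but these 2 are near-identical copies, and a second Apol9a probe gave 4.08 on the log2 scale. Tmem273 was at least 47.0-fold and Gpr25 at least 35.3-fold higher. Gpr25, however, has a second probe that showed a difference of 0.02.

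In the other direction stood Satb1, a chromatin organiser of T cells, which had 7.51 in Th1, 6.59 in rested and 2.42 in Th1reg, with 6.68 in Th1+TGFb and 3.97 in iTreg, a 33.9-fold difference. Itga7, an integrin chain, was 124.4-fold lower, and its level in rested (4.72) was near that in Th1 (4.84). Trib2, a pseudokinase, was 56.9-fold lower and stood at 2.94 to 3.25 on all arrays but Th1reg, where it was -2.58. A second Trib2 probe gave a smaller difference, -2.88. Serpinb5, the gene of maspin, was at least 1775-fold lower, with 7.07 in Th1, -0.09 in rested, 2.38 in Th1+TGFb and no signal well above background in Th1reg and iTreg. Selp, the gene of P-selectin, was at least 202.5-fold lower, and Dntt, the polymerase that adds bases during receptor gene assembly, at least 54.5-fold. Cxcr1, a chemokine receptor, was 313.2-fold lower, Ffar2, a receptor for short-chain fatty acids, 83.5-fold, Ramp3, a partner of peptide hormone receptors, 65.0-fold, Mctp2 55.1-fold and Mgll, a lipase for monoacylglycerols, 38.6-fold, with differences of -5.18 to -1.69 by other Mgll probes. The Cxcr1 level in Th1reg, -3.54, lay close to the lowest passing signal of that array, -3.72, so its fold is imprecise. Cstdc4 and Rufy4 were at least 89.8-fold and 82.9-fold lower. Over all 1892 genes called, 389 had other probes that were measured, 454 in number, of which 95.8% went the same way and 64.8% were themselves 2-fold apart in that direction.

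**Figure D3:**
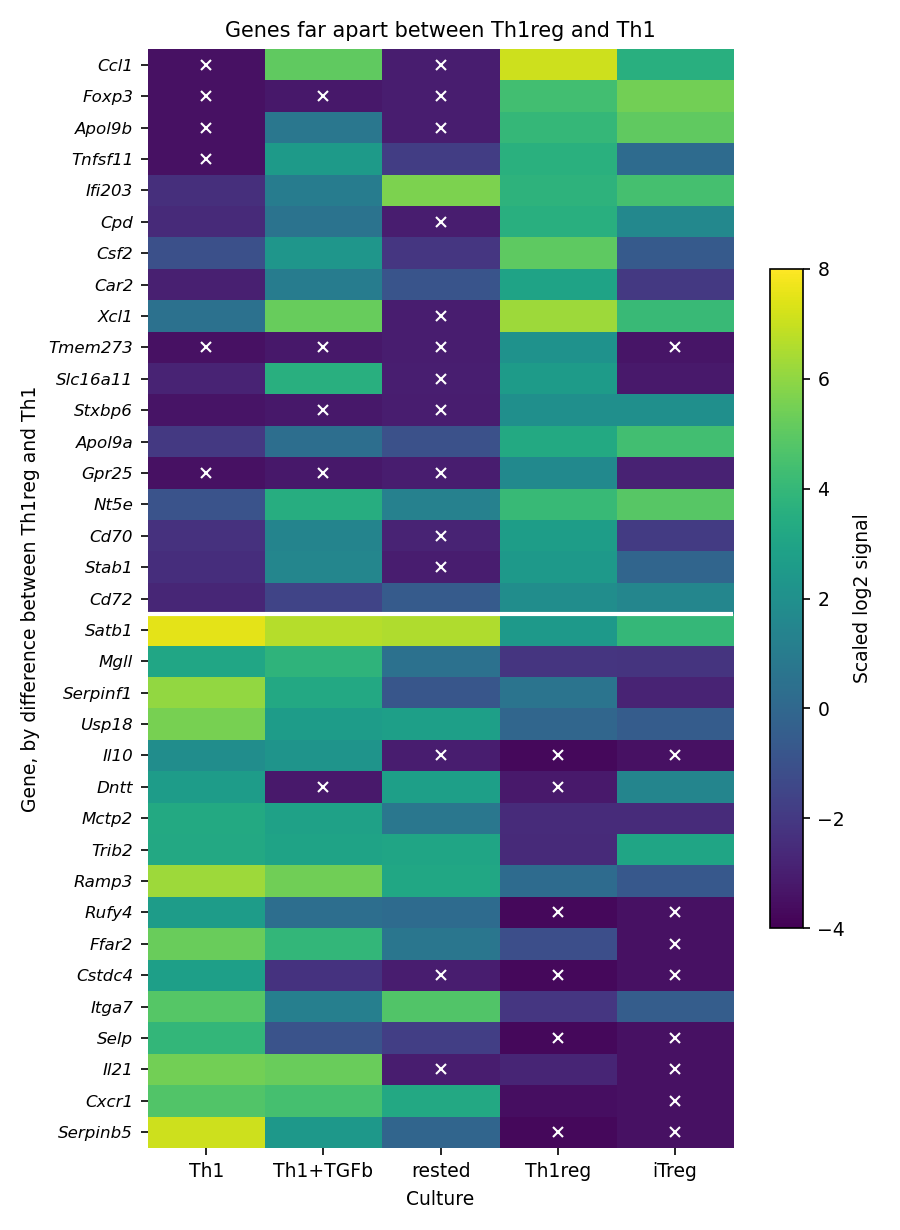
Scaled log2 signal, as colour, of genes far apart between Th1reg and Th1 (rows) on the 5 arrays (columns), with genes higher in Th1reg above the white line and lower ones below it. Crosses mark signals not well above background. Trib2 is low in Th1reg alone, Il10 and Il21 are low in rested, Th1reg and iTreg, and Serpinb5 is lowest in Th1reg and iTreg.

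TGF-beta is secreted in latent form, binds a receptor of types I and II and signals through Smad2, Smad3 and Smad4, which switch on their own inhibitors. Of 21 measured genes of the TGF-beta response list 4 were higher and 4 lower, with a median of 0.11 (7 higher and 3 lower scaled by spike-ins). Over all measured genes the shares were 6.48% higher and 8.22% lower. The higher members were targets, inhibitors and a receptor. Tgfbr1, the type I receptor, had -1.83 in Th1, -1.08 in rested and 1.30 in Th1reg, with -1.69 in Th1+TGFb and the highest level in iTreg, an 8.75-fold difference between Th1reg and Th1, with 2.03 log2 units by a second probe. Pmepa1, a target that dampens the signal, had 0.16 in Th1, -1.99 in rested and 2.71 in Th1reg, with 2.27 in Th1+TGFb and 3.12 in iTreg (5.86-fold). Skil, another feedback inhibitor, had 0.66 in Th1, 0.11 in rested and 3.04 in Th1reg, with 2.01 in Th1+TGFb and 2.98 in iTreg (5.20-fold). Pmepa1 and Skil were higher on all 3 arrays of cells that had received TGF-beta than on the other 2, whereas Tgfbr1 was higher in Th1reg and iTreg only. The share of all genes with either order was not counted. Rgs16 was 2.89-fold higher. Smad7, the inhibitory Smad, was near background, with a difference of at least 0.75. Among ligands, Tgfb3 was 19.3-fold lower, from 4.28 in Th1 to 0.01 in Th1reg, and Tgfb1 differed by 0.27. Furin, the protease that cuts the TGF-beta precursor, was 10.6-fold lower. Smad2, Smad3 and Smad4 differed by 0.32, -0.13 and -0.14.

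Lists of other helper lineages had median levels of 0.20 to 2.43 over their measured genes in Th1 and Th1reg. The Th1 programme list had 4.40 in Th1 and 3.82 in Th1reg. In the Th17 list 3 of 12 measured genes were higher and 5 lower, beside 6.48% and 8.22% of all measured genes. The median of the list was 0.21 (1 higher and 3 lower after normexp, and 5 higher and 4 lower scaled by spike-ins). Il21, a cytokine that helps B cells, had 5.43 in Th1 and 5.25 in Th1+TGFb, was near the limit in Th1reg at -2.78, and did not pass it in rested and iTreg, so it was 296-fold lower in Th1reg than in Th1. Irf4 and Batf, which work as a pair downstream of the T cell receptor, were 2.72-fold and 2.21-fold lower. Ccr6, a chemokine receptor of Th17 and some Treg cells, had -2.09 in Th1, -0.01 in rested and 1.71 in Th1reg, with -0.41 in Th1+TGFb and 1.86 in iTreg, and was 14.0-fold higher in Th1reg than in Th1. Il17a was not well above background on any array, nor was Il17f in Th1 or Th1reg.

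In the Th2 list 5 of 12 measured genes were higher and 4 lower, beside 6.48% and 8.22% of all measured genes. The median of the list was 0.66. Gata3, the Th2 factor that Treg cells also use, was 3.65-fold higher, with 0.50 in Th1, 3.38 in rested and 2.37 in Th1reg, beside 2.56 in Th1+TGFb and 2.46 in iTreg, so Th1 alone was low. Ccr4 was 4.05-fold higher. Il4 was at least 3.54-fold higher at a level of -1.62, and Il5, Il13, Il9 and Ptgdr2 did not rise well above background in Th1 or Th1reg. Il10, a cytokine that restrains immune responses, had 1.89 in Th1, fell short of the background limit in rested and Th1reg, and had 2.23 in Th1+TGFb and no passing signal in iTreg, which makes it at least 49.0-fold lower in Th1reg than in Th1. Nfil3, a transcription factor that acts on Il10 among others, was 13.0-fold lower, and Il4ra, the IL-4 receptor chain, 4.50-fold (-1.57 on the log2 scale by a second probe). In the follicular helper (Tfh) list 2 of 11 were higher and 3 lower (1 lower after normexp). Bcl6, the factor of that lineage, was 2.47-fold lower and was higher on the Th1+TGFb, rested and iTreg arrays (3.09 to 3.78) than on Th1 and Th1reg (0.83 and -0.47). Tox was 4.82-fold higher.

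Of 22 measured cytokine genes, 8 were higher and 7 lower in Th1reg, with a median of 0.34, beside 6.48% and 8.22% of all measured genes. The higher ones were Tnfsf11, Csf2, Ebi3, Lta, Il4, Tnfsf14, Il3 and Tnf, from at least 133.0-fold down to 2.26-fold. The lower ones were Il21, Il10, Il24, Tnfsf8, Csf1, Il22 and Osm, from 296-fold to 2.39-fold. Il2, the growth factor made early after stimulation, was near background on the Th1 array and not above it in Th1reg. Cytokine receptor genes numbered 3 higher and 7 lower of 24, with a median of -0.22 (0.07, with 6 higher and 6 lower, scaled by spike-ins). Il1r2, the decoy receptor of IL-1, was at least 20.1-fold lower, with 0.61 in Th1 and 4.95 in Th1+TGFb. Il10ra was 5.95-fold lower, Il6st and Il6ra, the parts of the IL-6 receptor, 3.01-fold and 2.96-fold. Il6ra was highest in iTreg (6.58) and lowest in Th1reg (2.34). The IL-2 receptor chains Il2ra, Il2rb and Il2rg differed by -0.08, -0.28 and -0.20, and Il7r by -0.78.

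Chemokine receptors and integrins, which direct where T cells go, numbered 7 higher and 4 lower of 18 measured, with a median of 0.33. The shares over all measured genes were 6.48% and 8.22%. The higher ones were Ccr8, Cxcr3, Cx3cr1 (at least 14.3-fold), Ccr6, Itga4, Ccr4 and Cxcr6. Itga4, the alpha chain of the integrins that enter gut and inflamed tissue, had 0.42 in Th1, 4.58 in rested and 2.97 in Th1reg, with 4.70 in Th1+TGFb and 3.65 in iTreg, and was 5.85-fold higher in Th1reg than in Th1, with a log2 difference of 1.13 by a second probe. Other probes of Cx3cr1 gave 0.70 to 3.38. The lower ones included Cxcr4 (at least 10.1-fold), Itga1 and Itgb3. Cxcr4, the receptor that holds cells in bone marrow, was not well above background in Th1reg and lay between -0.99 and 0.63 on the other arrays.

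Genes of acute activation differed in both directions. Of 28 measured, 7 were higher and 4 lower, beside 6.48% and 8.22% of all measured genes. The median of the list was 0.26 (8 higher and 2 lower scaled by spike-ins). Nr4a1, an early gene of T cell receptor signals, had 7.01 in Th1, -0.31 in rested and 7.63 in Th1reg, with 7.05 in Th1+TGFb and 6.79 in iTreg. Rested was the low array here and the 4 stimulated cultures lay together, from 6.79 to 7.63. Myc differed by -0.15, Cd44, an adhesion receptor of activated cells, by 0.94 and Cd69, an early surface marker, by 1.03, a call that 3 of the alternatives did not hold. Egr2, a factor of the same early group linked to restraint of T cells, was 3.04-fold higher, with 2.76 in Th1, -2.47 in rested and 4.36 in Th1reg, beside 3.52 in Th1+TGFb and 2.78 in iTreg.

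Of 27 measured genes of quiescence and lymphoid homing, 11 were lower and 0 higher, with a median of -0.73, and the rest were under 2-fold apart. Besides Satb1 these included Nsg2 (11.1-fold), Btg2 and Btg1, which restrain proliferation (3.22-fold and 2.30-fold), Ets1 (3.09-fold), S1pr1, the receptor by which T cells leave lymph nodes (2.76-fold), Klf2 (2.54-fold), Slfn1 (2.54-fold), Tcf7 (2.14-fold) and Lef1 (2.09-fold). Klf2, the factor that switches on S1pr1, had 0.75 in Th1, 5.86 in rested and -0.60 in Th1reg, with -0.04 in Th1+TGFb and 6.03 in iTreg. Tcf7, the gene of TCF1, had 0.61 in Th1, 4.36 in rested and -0.49 in Th1reg, with 2.17 in Th1+TGFb and 2.94 in iTreg. S1pr1 had 2.33 in Th1, 5.22 in rested and 0.87 in Th1reg, with 1.48 in Th1+TGFb and 3.09 in iTreg. For Klf2, Tcf7 and S1pr1 the rested and iTreg arrays were high and Th1reg was the lowest of the 5. Ccr7, a main receptor for entry to lymph nodes, was 7.02 to 7.87 on all arrays and differed by -0.73. Foxo1, which acts upstream of Klf2, differed by -0.12. The calls of Klf2, Tcf7 and Lef1, all close to 2-fold, were lost under at least 1 alternative. Scaled by spike-ins, 8 of the 27 were lower and 0 higher.

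Interferon-induced genes were lower in part. Type I interferons act through STAT2 and IRF9, among others, on promoter elements of the ISRE kind, and IFN-gamma in part through IRF1. Of 23 measured genes of the type I list 10 were lower and 1 higher, with a median of -0.48 (6 lower after normexp background correction, which lifts low signals, and 6 over the genes that passed on both arrays). Usp18, which removes ISG15 from proteins and dampens the receptor, had 5.53 in Th1, 2.76 in rested and -0.02 in Th1reg, with 2.65 in Th1+TGFb and -0.53 in iTreg (46.6-fold lower in Th1reg than in Th1). Isg15, a ubiquitin-like protein, had 5.06 in Th1, 3.03 in rested and 2.01 in Th1reg, with 4.56 in Th1+TGFb and 1.74 in iTreg (8.27-fold). Th1 was the highest and iTreg the lowest array for both. Oasl1 was at least 21.0-fold lower. Ifit1 and Ifit3, which bind viral RNA, were at least 3.25-fold and 2.16-fold lower at low levels. Rtp4 was 5.01-fold higher, with -2.66 in Th1, 3.71 in rested and -0.33 in Th1reg, beside -0.44 in Th1+TGFb and 1.05 in iTreg. The factors Stat2 and Irf7 differed by -0.48 and -0.22.

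Of 28 measured interferon-gamma-inducible genes 8 were lower and 0 higher, with a median of -0.31 (4 lower and a median of -0.05 scaled by spike-ins, and 5 lower after normexp). Cxcl10, a chemokine that binds Cxcr3, had 0.91 in Th1, -1.08 in Th1+TGFb, -2.92 in Th1reg and no signal well above background in rested and iTreg (14.2-fold lower in Th1reg than in Th1). Gbp2, a GTPase of defence against intracellular microbes, had 7.59 in Th1, 4.73 in rested and 4.53 in Th1reg, with 7.15 in Th1+TGFb and 4.66 in iTreg (8.38-fold). On the scaling used here, rested, Th1reg and iTreg lay together for Gbp2, well under Th1 and Th1+TGFb. The closeness to rested depends on that scaling, as given above. Other called members of the Gbp family were 2.16-fold to 3.45-fold lower, with close relatives among them, and Gbp3 was under 2-fold apart. Irf1, Socs1 and Cd274, the gene of PD-L1, differed by -0.55, -0.21 and 0.07, and the immunoproteasome genes Psmb8, Psmb9 and Psmb10 by 0.05, 0.06 and 0.47.

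The promoters of 3 of these genes are shown because they carry a sequence of the kind that interferon-activated factors bind. The motif searched was GAAA, then any 2 bases, then GAAA again, on either strand, in the 250 bases before the start in the RefSeq table of GRCm38.p6; matches are in capitals and may overlap each other. Isg15 lies at chr4:156200819-156201068 on the minus strand, with 3 matches from 78 to 66 bases before the start. Gbp2 lies at chr3:142620413-142620662 on the plus strand, with 1 match at 59 bases, and Cxcl10 at chr5:92348890-92349139 on the minus strand, with 1 match at 213 bases.
Isg15: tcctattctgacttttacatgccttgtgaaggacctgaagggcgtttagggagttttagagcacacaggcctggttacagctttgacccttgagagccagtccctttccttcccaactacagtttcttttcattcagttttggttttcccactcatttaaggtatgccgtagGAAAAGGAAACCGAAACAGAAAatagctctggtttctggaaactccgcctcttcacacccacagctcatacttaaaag
Gbp2: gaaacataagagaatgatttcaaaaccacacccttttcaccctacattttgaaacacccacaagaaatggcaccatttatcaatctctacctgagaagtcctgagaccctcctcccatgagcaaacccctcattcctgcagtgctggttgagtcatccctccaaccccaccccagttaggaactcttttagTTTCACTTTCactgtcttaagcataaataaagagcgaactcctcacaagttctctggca
Cxcl10: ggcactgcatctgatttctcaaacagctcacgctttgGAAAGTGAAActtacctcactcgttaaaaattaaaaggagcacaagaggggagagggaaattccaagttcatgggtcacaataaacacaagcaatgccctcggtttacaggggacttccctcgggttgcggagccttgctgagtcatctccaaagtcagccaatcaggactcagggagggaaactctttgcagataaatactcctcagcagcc

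The motif was found in 2.98% of all 32851 promoters. Of 18 genes in the interferon lists that were 2-fold lower in Th1reg, 12 had a promoter in the table and 10 of them held the motif. Of 31 that were under 2-fold apart, 24 had a promoter and 9 held it. These counts are of genes with a match before at least 1 start, whereas the 2.98% is a share of single promoters. The match is a description of these letters and not of a factor at work.

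Of 27 measured glycolysis and hypoxia genes 9 were lower and 0 higher, with a median of -0.88. Ndrg1, a gene induced by low oxygen, had 5.50 in Th1, 3.15 in rested and 1.14 in Th1reg, with 3.12 in Th1+TGFb and 3.19 in iTreg (20.5-fold). Slc2a3, a glucose transporter, had 5.25 in Th1, 4.14 in rested and 2.31 in Th1reg, with 5.33 in Th1+TGFb and 1.40 in iTreg (7.70-fold). Hif1a, the oxygen-regulated subunit of the factor HIF, had 5.60 in Th1, 4.04 in rested and 3.89 in Th1reg, with 5.41 in Th1+TGFb and 1.85 in iTreg (3.27-fold). Egln3, the prolyl hydroxylase that marks Hif1a for decay, was 7.67-fold lower, Aldoc 3.31-fold, Pkm 2.67-fold, Slc16a3, the exporter of lactate, 2.33-fold and Slc2a1, the main glucose transporter, 2.28-fold. Hk2 and Gapdh, enzymes of the first and a middle step of glycolysis, differed by -0.71 and -0.68, and Ldha, which makes lactate, by -0.46. Scaled by spike-ins the median was -0.59 and 7 were lower.

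The Slc16a3 promoter, at chr11:120948817-120949066 on the plus strand, is shown as that of a lower gene with 2 copies of ACGTG, the core bound by HIF (capitals), 27 and 14 bases before the start.
Slc16a3: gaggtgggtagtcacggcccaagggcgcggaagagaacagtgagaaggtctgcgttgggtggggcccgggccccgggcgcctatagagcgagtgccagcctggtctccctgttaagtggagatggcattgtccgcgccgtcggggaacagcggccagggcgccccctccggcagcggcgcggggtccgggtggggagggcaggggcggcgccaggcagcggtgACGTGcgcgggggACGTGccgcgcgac

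That core was found on either strand in 16.6% of all 32851 promoters. Of the 9 lower glycolysis and hypoxia genes, 7 had a promoter listed and 6 of them held the core before at least 1 start. Of 18 genes under 2-fold apart with a promoter, 11 held it. These count genes, and a gene with several starts has more chances of a match, so they are not like the 16.6% of single promoters. The 5 letters are also part of the E-box CACGTG and say nothing on their own about HIF binding.

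**Figure D4:**
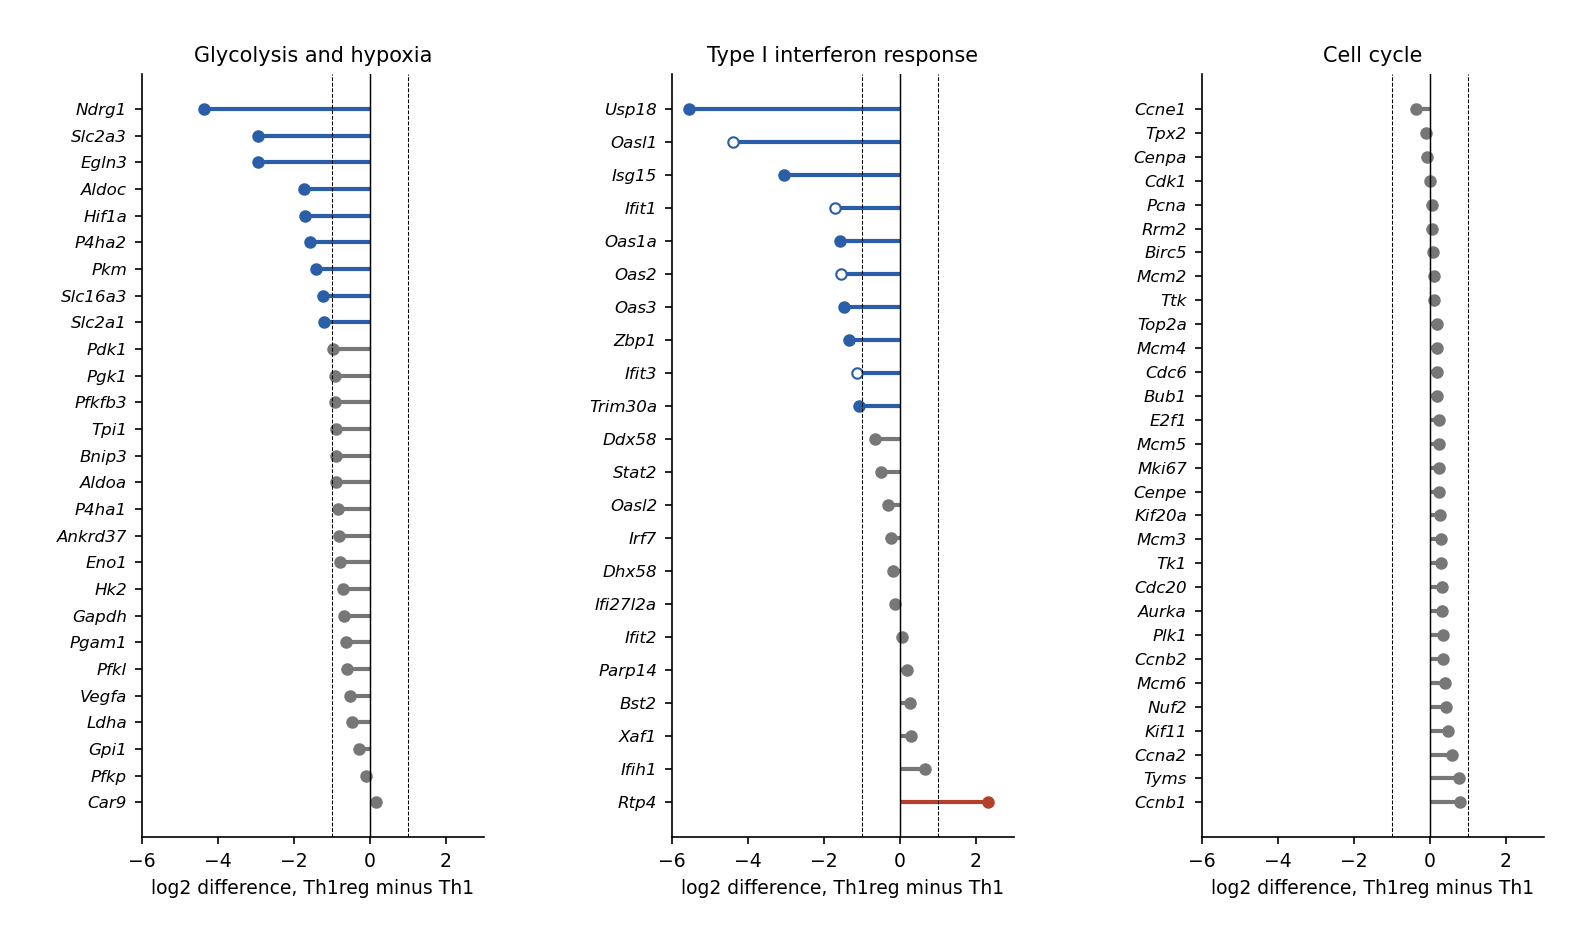
log2 difference between Th1reg and Th1 for measured genes of the glycolysis and hypoxia, type I interferon and cell cycle lists, with dashed lines at 2-fold and open circles for bounds. Nearly all glycolysis genes lie left of 0, the interferon genes spread from Usp18 at -5.54 to Rtp4 at 2.32, and no cell cycle gene reaches 2-fold.

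Cell cycle genes were close on the 2 arrays. Of 30 measured, 0 were 2-fold apart, beside 14.7% of all measured genes. The differences ran from -0.36 (Ccne1) to 0.80 (Ccnb1) and their median was 0.25. Scaled by spike-ins 2 were higher. Mki67, the marker of dividing cells, had 6.86 in Th1, 3.51 in rested and 7.12 in Th1reg, with 5.31 in Th1+TGFb and 7.02 in iTreg. Top2a, needed to separate chromosomes, had 5.13 in Th1, 1.78 in rested and 5.32 in Th1reg, with 3.70 in Th1+TGFb and 5.07 in iTreg. The rested array was lowest for both, and Th1, Th1reg and iTreg lay together at the top. Ribosome biogenesis genes had 1 of 25 higher, Pes1, beside 6.48% of all measured genes, and a median of 0.40. That call was lost after normexp and with the median over all probes of a gene, and a second Pes1 probe gave 0.43. Sterol synthesis genes had 1 of 24 higher, the desaturase Scd1, again beside 6.48%, with a median of 0.07 (3 higher scaled by spike-ins). Cdkn2d, an inhibitor of G1 kinases, was 2.47-fold lower and Ccnd1 4.69-fold higher among 14 G1 regulators, whose median was -0.05 (0.24 scaled by spike-ins and 0.02 after quantile normalization). In the amino acid and ATF4 list 5 of 24 were lower and 1 higher, beside 8.22% and 6.48% of all measured genes. The median of the list was -0.20 (0.08, with 3 lower and 3 higher, scaled by spike-ins, and 2 lower after normexp). Vldlr, a lipoprotein receptor, was 22.4-fold lower, Gpt2, a transaminase, 4.34-fold lower, and Nupr1, a stress-induced regulator, 5.80-fold higher, while Atf4 itself differed by -0.22.

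Inhibitory receptors that mark exhausted or chronically stimulated T cells did not move together. Of 14 measured, 3 were lower and 0 higher, beside 8.22% and 6.48% of all measured genes. The median was -0.16, which became 0.13, with 4 higher, when scaled by spike-ins and 0.07 over the genes that passed on both arrays. Lag3, a receptor that binds MHC class II, had 4.25 in Th1, -1.65 in rested and 0.79 in Th1reg, with 4.44 in Th1+TGFb and -1.40 in iTreg, which is a difference of -3.46. Havcr2, which encodes TIM-3, was at least 5.53-fold lower and Vsir, which encodes VISTA, 3.56-fold. Pdcd1, the gene of PD-1, differed by 0.43 and Tigit by 0.67. Of 22 genes linked to IL-2 and STAT5, 5 were lower and 2 higher, with a median of -0.32. Socs3 was 6.92-fold lower, and Cish, an early STAT5 target, differed by 0.58.

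Of 17 BCL-2 family and death genes 2 were lower and 2 higher, beside 8.22% and 6.48% of all measured genes. The median of the list was -0.06 (0.23 scaled by spike-ins and 0.02 after normexp background correction). Bcl2l11, which encodes the killer protein BIM, had 0.96 in Th1, -0.26 in rested, no passing signal in Th1reg and -1.37 in iTreg, with Th1+TGFb close to Th1. In Th1reg it was at least 20.4-fold below Th1, and a second probe gave -3.01 on the log2 scale. Fas was lower too (difference -1.59), whereas Fasl and Bcl2a1d were 4.26-fold and 2.63-fold higher. Bcl2, the survival protein, differed by -0.80. Of 15 DNA methylation and polycomb genes 2 were higher and 1 lower, beside 6.48% and 8.22% of all measured genes. The median of the list was -0.16 (0.13 scaled by spike-ins). The methyltransferases Dnmt3a and Dnmt3b, which set new marks, were 2.07-fold and 2.29-fold higher, and Dnmt1, which copies them, differed by 0.11. The call of Dnmt3a was lost after quantile normalization. Jarid2, a partner of polycomb, was 3.89-fold lower. Tet1, Tet2 and Tet3, which oxidise methylated cytosine, differed by -0.49, -0.65 and -0.32.

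**Figure D5:**
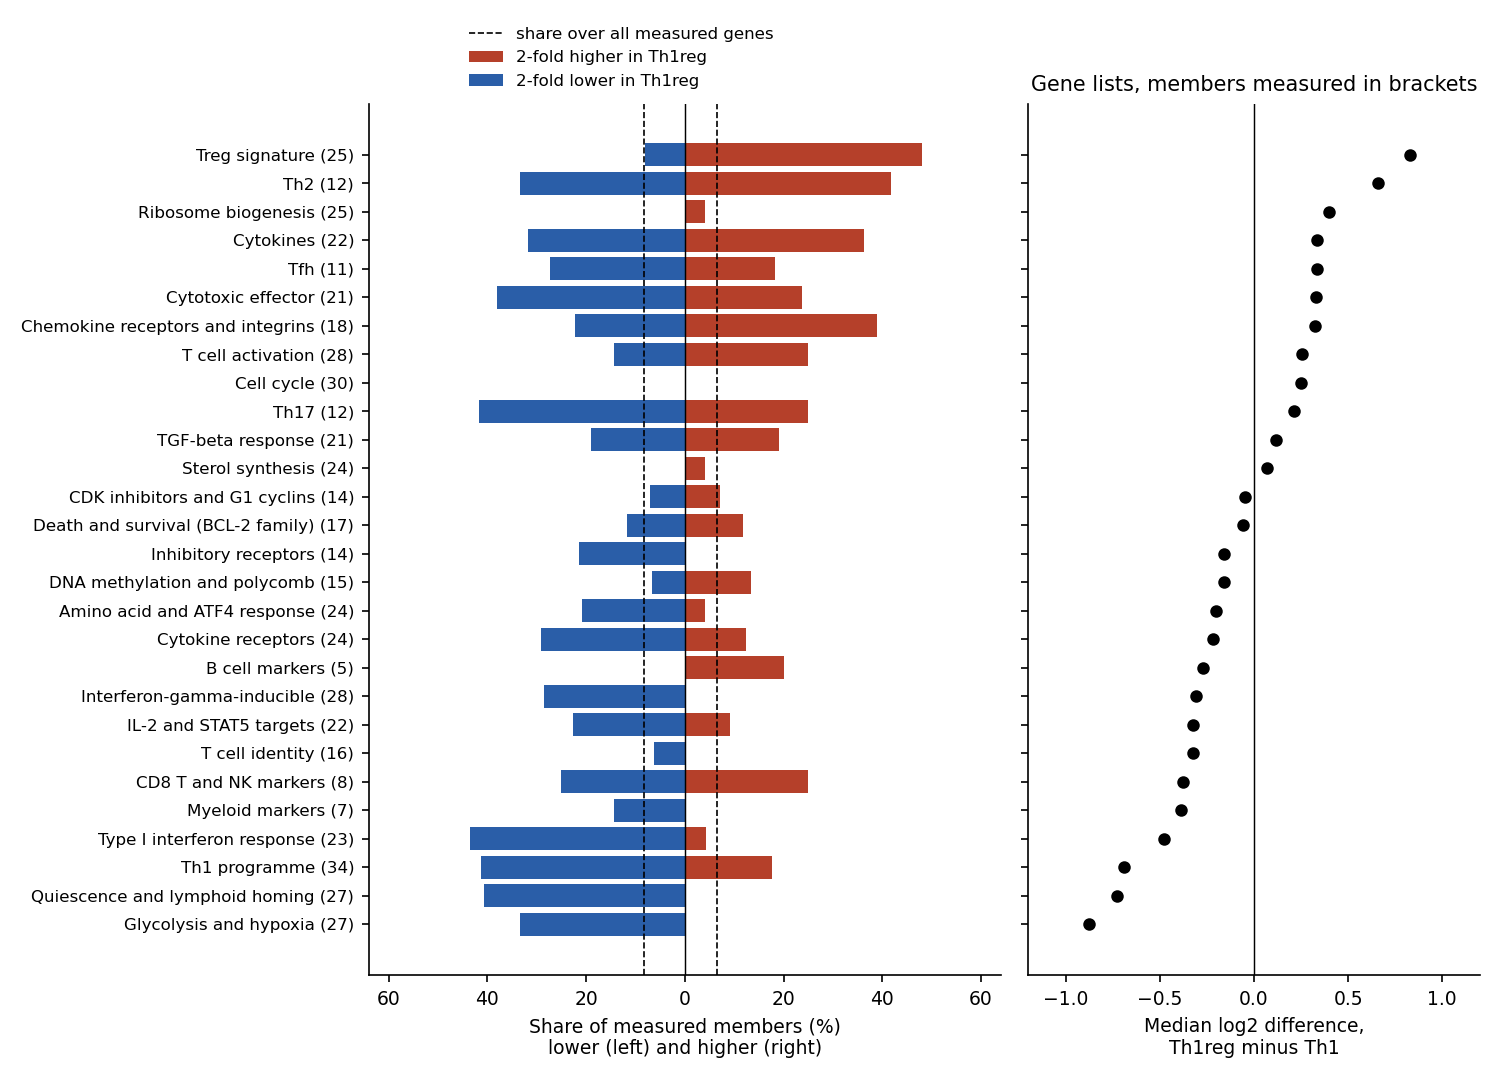
Share of the measured members of each list that were 2-fold lower (blue, left) or higher (red, right) in Th1reg than in Th1, and the median log2 difference of each list. Dashed lines give the share over all measured genes, 8.22% lower and 6.48% higher; the Treg signature has the highest median and glycolysis and hypoxia the lowest.

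Markers of CD4 T cells were present as labelled. All 16 T cell identity genes were well above background on both arrays. Cd4 had 5.58 in Th1, 5.84 in rested and 5.44 in Th1reg, with 5.76 in Th1+TGFb and 4.30 in iTreg, and Cd3e 7.34 in Th1, 7.45 in rested and 7.50 in Th1reg, with 7.74 in Th1+TGFb and 6.54 in iTreg. Only Cd28, the costimulatory receptor, was 2-fold apart, 3.64-fold lower in Th1reg, beside 14.7% of all measured genes 2-fold apart in either direction. The levels of the list, summed on a linear scale in units of the 75th percentile, came to 3382 in Th1 and 2854 in Th1reg. Markers of other cells were weak. Of 9 B cell markers 5 were measured, the sum was 1.92 in Th1 and 1.75 in Th1reg, and Cd79a, Pax5 and Blk passed the background mark on no array. Cd79b was at least 3.04-fold higher in Th1reg, at a level of -1.83, a call that was lost after normexp. Of 8 erythroid and platelet markers, 0 were well above background on the Th1 or Th1reg array. Of 11 CD8 T and NK markers 8 were measured, with a sum of 23.4 in Th1 and 14.1 in Th1reg. Klra5 was 12.1-fold and Klri2 at least 9.98-fold higher, Klra1 2.73-fold and Klra7 at least 4.24-fold lower, all in families of close relatives, while Ncr1 and Klrb1c passed it on no array and Cd8a on neither of the 2.

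Myeloid markers need more care. Of 14, 7 were measured, and Lyz2, Lyz1, S100a8, S100a9 and Spi1 passed the background mark on none of the 5. Itgam, Csf3r and Siglech gave strong signals on all 5 arrays, lowest in Th1reg and highest in rested: Itgam from 5.84 to 9.01, Csf3r from 7.49 to 9.33 and Siglech from 7.84 to 9.62. The summed signal of the list was 644.5 in Th1, 1949.9 in rested and 468.8 in Th1reg, with 1298 in Th1+TGFb and 1028 in iTreg. Between Th1reg and Th1 these 3 genes differed by -0.90, -0.39 and -0.38, and Fcer1g was 2.64-fold lower. What part other cells had in the differences between Th1reg and Th1 was not tested.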

How the data were processed

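RNA of each culture was labelled with Cy3 (Quick-Amp kit, per the labels' protocols) and hybridised to 1-colour Agilent mouse arrays. The authors deposited scanner output from Agilent Feature Extraction 10.7.1.1, per the file headers and the submitters' processing notes; its processed signal is a linear intensity, background-subtracted, with no scaling between arrays. The deposited value table holds the same intensity divided by 1 constant per array (99.7% to 99.8% of probes within 0.01 log2 units of one ratio; column medians 0.0762 for Th1, 0.123 for rested, 0.0693 for Th1reg, 0.103 for Th1+TGFb and 0.0925 for iTreg), so its scale and direction are known, while how those constants were chosen stays unknown here. It served as an alternative.

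Control spots and 109 to 142 outlier spots per array were left out; 0 spots were saturated. Spots of a probe were averaged, and log2 of the array's 75th percentile over all probes was subtracted. Accessions matched 28331 of 55681 probes to 21368 genes in a RefSeq table of GRCm38.p6, of which 21366 had values. The array design is built on mm9, so that table gave names only. The probe with the highest mean over the 5 arrays stood for a gene.

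Members and gene lists were chosen with earlier results of these data known, so counts in the lists are descriptions. Each is to be read beside the shares over all measured genes, 6.48% higher and 8.22% lower. Genes may sit in several lists. The text names the 4 markers, Ifng, Il10, Ctla4 and Il2ra, the 12 largest measured differences and 6 largest bounds each way, core members of each list and its 6 largest differences, and a part of these is printed; other members named were chosen after their values were seen. Some genes that the rule names are not reported here. No probe was matched to the list members Ly6c2, Itgae, Mx1, Mx2, Cxcl11, Serpina3g, Cd244, Ero1l, Pycr1, Bcl2a1a and Bcl2a1b. Alternatives changed the scaling (detected probes, spike-ins, quantile), the background (normexp with limma 3.58.1 on the median and background signals, since the mean signal was not used), the treatment of dim probes and outliers, the source of values, the probe for a gene and the threshold. The calculation of bounds was tested on simulated data. Python 3.11.15 and R 4.3.3 were used. Promoter sequences are RefSeq's for GRCm38.p6.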

Additional observations from a re-analysis of the deposited data

How the results depend on the processing

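Each comparison rests on 1 array per culture, so no left-out replicate, and no replicate error, could be had. No paired analysis was possible because each group holds 1 array and its replicate number is only a name. The count of 3555 probes 2-fold apart between Th1reg and Th1 became 1599 after normexp, 8144 with no filter or floor on dim signals, 2368 over probes well above background on both arrays and 916 at 4-fold. The count of 1892 genes became 1071, 3284 and 596 under the first, second and last of these. Against rested, 6462 genes became 10277 by spike-ins and 2348 at 4-fold. Against Th1+TGFb, 3687 became 6687 and 873, and against iTreg 3810 became 2382 after normexp and 913 at 4-fold. Other alternatives left these counts within 1.5 times. Spike-ins moved the share of called probes that were higher in Th1reg than in Th1 from 42.0% to 68.0% and of genes from 44.1% to 65.6%. The share higher was 61.0% of calls against rested (36.4% and 47.1% scaled by the 75th percentile or median of detected probes, 92.9% by spike-ins), 48.0% against Th1+TGFb (27.4%, 31.1%, 84.3% in the same order, 58.7% after normexp and 17.0% at 4-fold) and 60.3% against iTreg (31.0% and 46.8% by detected probes, 73.3% after normexp). Of 28 list medians, 7 changed sign by spike-ins (G1 regulators, inhibitory receptors, ATF4, BCL-2 family, cytokine receptors, DNA methylation and B cell markers) and at most 1 under any other alternative.

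All 146 named genes called 2-fold apart kept their direction, which scaling by spike-ins or detected probes could not turn, as its shift was under 2-fold. Calls were lost by spike-ins for Ddit3, Ddit4, Gbp9, Icam1, Ifit3, Il12rb1, Lef1, Slc2a1 and Tcf7, and by quantile normalization for Cd69, Cxcr6, Ddit4, Dnmt3a, Ifit3, Lef1 and Tcf7. After normexp 22 were lost, among them Klf2, Tcf7, Bcl6, Ahr, Ascl2, Cbs, Cd79b, Ddit3, Ddit4, Fcer1g, Gbp9, Icam1, Il4, Il22, Il23r, Ifit1, Ifit3, Klra7, Nr4a3, Pes1 and Cd69. Cd69 was also lost by the median of detected probes, and Pes1 and Tcf7 with the median over all probes of a gene. The fold of a gene near background is imprecise: Foxp3 differed by at least 7.80 log2 units, by 5.67 after normexp and by 9.49 with no floor.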

Other observations

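Some genes had a pattern over the 5 arrays much like that of Foxp3 or Tbx21. Among 3638 genes that ranged over at least 2 log2 units, the closest to Foxp3 by Pearson correlation were Stxbp6 (0.996), Nav1 (0.995), Rragd (0.995), Lrrc32 (0.991) and D4Ertd617e (0.990). Nav1, a protein of neuronal migration, had 1.28 in Th1reg and 2.69 in iTreg and at most -2.86 elsewhere, and Rragd, a GTPase that brings mTORC1 to the lysosome, had -1.23 in Th1reg and -0.69 in iTreg. The closest to Tbx21 were Sec24d (0.998), a coat protein of vesicles, Nsg1 (0.995), Noxred1 (0.995), Aldh5a1 (0.992) and H2-T-ps (0.992). Aldh5a1 had 2.54 in Th1, 1.50 in rested and 1.99 in Th1reg, with 2.01 in Th1+TGFb and -0.39 in iTreg. With 5 arrays and so many genes searched, these values are descriptions and share all their arrays.

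Probes without a gene name in the table used include sets that the array design names by a genome region. Of 707 regions of the array design with at least 3 such probes, 31 had all their probes 2-fold apart in one direction, 14 higher and 17 lower. On mm9, as the files give it, the highest median was 4.81 over 5 probes at chr1:175705225-175717250, where the median level was -2.76 in Th1, 4.11 in rested and 2.64 in Th1reg, with 0.40 in Th1+TGFb and 2.61 in iTreg. The lowest was -4.27 over 3 probes at chr1:186560855-186563399, with 1.36 in Th1, -1.89 in rested and -2.91 in Th1reg, with 0.40 in Th1+TGFb and -5.35 in iTreg.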
